A study of Mus musculus with 79 samples.

Results

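The genes described here are the ligands, receptors, secreted inhibitors and SMAD proteins of the transforming growth factor beta (TGF-beta) and bone morphogenetic protein (BMP) family, measured on ribosomes of dopamine-receptor neurons in mouse brain. Members were taken by gene symbol: the Bmp, Gdf, Inhb, Tgfb, Acvr and Smad series with their BMP and TGF-beta receptors, plus Inha, Nog, Chrd, Fst, Eng and Grem1. The rule found 54 of the 25899 genes in the table. No measured value entered it, but the members were chosen with earlier results of these data known. The study asked how gene expression in such neurons depends on the receptor they carry and the region they lie in. All mice were heterozygous for a bacterial artificial chromosome (BAC) transgene in which the D1a or the D2 dopamine receptor promoter drives the ribosomal protein L10a fused to eGFP, on a C57BL/6J background. The tagged ribosomes are immunoprecipitated and their mRNA is sequenced (the bacTRAP method), so a library holds RNA from every cell type that uses the promoter. Each of the 79 libraries pooled tissue of 3 mice of both sexes. From dorsal striatum there were 15 D1 and 16 D2 libraries, from ventral striatum (punched from the nucleus accumbens) 15 D1 and 14 D2 libraries, and from prefrontal cortex 19 D1 libraries, which makes 5 groups. No treatment and no age separates the groups in the labels. Whether any mice gave tissue to more than 1 region is not labelled, and p-values measure the spread between these pools.

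Ligands of this family are secreted dimers that bring together type II and type I receptors, both of them serine/threonine kinases. The type II receptor phosphorylates the type I receptor, which then phosphorylates a receptor-regulated SMAD. Activins, TGF-betas and several GDFs act mostly through Smad2 and Smad3, BMPs through Smad1, Smad5 and Smad9, and both sets pair with the common Smad4 to reach the nucleus. Inhibitory SMADs turn the pathway down inside the cell, and secreted proteins such as follistatin, noggin, chordin and gremlin bind ligands outside it. In adult brain, activin A, the dimer of the Inhba product, is known as an activity-induced factor that acts on synapses.

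Values are CPM, read counts per gene scaled by the authors to a library total, and 1 read was worth 0.0124 to 0.0466 CPM. Reads in listed genes ran from 7.35 to 30.83 M (mega) per library, with a median of 17.5 M. Differences are in log2(CPM + 0.5), which understates the change of low genes, with the standard error (SE) and an adjusted p from limma over all genes tested. A gene entered a comparison when it had at least 1 CPM in as many libraries as the smaller group has, and it is called when its adjusted p is under 0.05. Library names start with 1 of 4 letter codes of unstated meaning. EM is the one code found in quantity in every group (11, 8, 11, 8 and 15 libraries in the order above), and OdP names 8 of 16 D2 dorsal but 0 of 15 D1 dorsal libraries. Values from EM libraries alone are therefore given beside the pooled ones for many, not all, differences of members. Wherever a call of a member was lost in EM libraries, the loss is stated. In striatum, markers of D1 and D2 neurons followed the labels: 4 D1 markers summed to medians of 463 and 367.1 CPM in D1 dorsal and ventral libraries against 31.85 and 38.79 CPM in D2 ones. In the D1 cortical libraries the median of that sum was 27.21 CPM (17.12 to 76.98), under both D2 striatal medians, so these markers do not set the cortical libraries apart as D1. The summed level of 10 endothelial markers had group medians from 0.883 to 2.21 CPM, and that of 10 microglial and macrophage markers from 3.46 to 5.10 CPM. In such bulk libraries, fewer cells of a type and less RNA per cell cannot be told apart.

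Of the 54 members, 28 were tested in at least 1 of the 6 two-group comparisons and 21 in all 6. The other 26 stayed low throughout, with no group mean above 0.989 CPM (Bmp6 in D1 dorsal striatum), and 10 of them reached 1 CPM in some library. They were the ligands Bmp4, Bmp5, Bmp6, Bmp8a, Bmp8b, Bmp10, Bmp15, Gdf2, Gdf3, Gdf5, Gdf6, Gdf7, Gdf9, Gdf10, Gdf15, Inhbb, Inhbc, Inhbe and Tgfb1, the type II receptor Acvr2b, the co-receptor Eng (endoglin), the inhibitors Chrd, Grem1 and Nog, the inhibitory Smad6, and Bmp1, which despite its name is a protease. Bmp10 and Gdf3 were listed at 0 in all 79 libraries. The ligand genes that were tested were Bmp2, Bmp3, Bmp7, Gdf1, Gdf11, Inha, Inhba, Tgfb2 and Tgfb3. Tgfb1, the ligand best known from immune and vascular cells, had group means of 0.016 to 0.072 CPM.

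The sharpest regional pattern was in the type I receptors. Acvrl1, which encodes ALK1, a receptor for BMP9 and BMP10 known mainly from blood vessels, ran from 3.86 to 7.85 CPM in D1 dorsal striatum (median 5.08). In D2 dorsal striatum it ran from 1.79 to 8.25 CPM (median 5.24). In the D1 ventral libraries it lay between 0.0175 and 1.25 CPM (median 0.308), and in the D2 ventral libraries between 0 and 1.86 CPM (median 0.277). The prefrontal cortex libraries held 0 to 0.612 CPM (median 0.0524), with 4 of 19 at 0. Every D1 dorsal library thus lay above every D1 ventral and every cortical one, and 15 of 16 D2 dorsal libraries lay above all D2 ventral ones. The ratio of group means was 13.1 between dorsal and ventral striatum for D1 and 8.98 for D2. On the log2 scale Acvrl1 was higher in dorsal striatum by 2.77 (SE 0.15, adjusted p = 8.65e-17) for D1 and by 2.47 (SE 0.23, adjusted p = 8.46e-11) for D2. EM libraries alone gave 2.67 and 2.60. With 1 CPM reached in 2 of 15 D1 ventral and 2 of 14 D2 ventral libraries, the gene entered both tests through the dorsal libraries where it was high.

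Within dorsal striatum the D1 minus D2 difference of Acvrl1 was not called (0.21, SE 0.16, adjusted p = 0.319). Its cortical level was lower than in D1 dorsal striatum by 3.22 on the log2 scale (SE 0.12, adjusted p = 1.7e-24), a test it entered through the dorsal libraries, since none of the 19 cortical ones reached 1 CPM. The 10 endothelial markers summed to 0.874 to 4.97 CPM in D1 dorsal libraries (median 2.21), with 9 of 10 averaging under 1 CPM and 8 under 0.1 CPM, and Cldn5 averaged 0.0141 CPM. Esam, the 1 marker above, averaged 1.70 CPM there and 0.509 CPM in D1 ventral striatum, and 1.188 against 0.57 CPM in D2 dorsal and ventral libraries. The summed endothelial level was 0.450 to 3.87 CPM in D1 ventral (median 0.883), 0.477 to 4.82 CPM in D2 dorsal (median 2.13), 0.426 to 6.86 CPM in D2 ventral (median 1.585) and 0.498 to 10.4 CPM in cortical libraries (median 1.598). The markers did not move together: 5 of the 10 had the higher mean in dorsal striatum for D1 and 2 of 10 (Esam and Emcn) for D2. Flt1, for one, averaged 0.0916 CPM in D1 dorsal against 0.2916 in D1 ventral libraries and 0.3351 in D2 dorsal against 0.8293 CPM in D2 ventral ones. The part of these markers in the level of Acvrl1 was not tested. Gdf2 and Bmp10, the genes of its 2 best-known ligands, were among the members at or near 0, and so was the co-receptor Eng at group means up to 0.258 CPM.

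**Figure D1:**
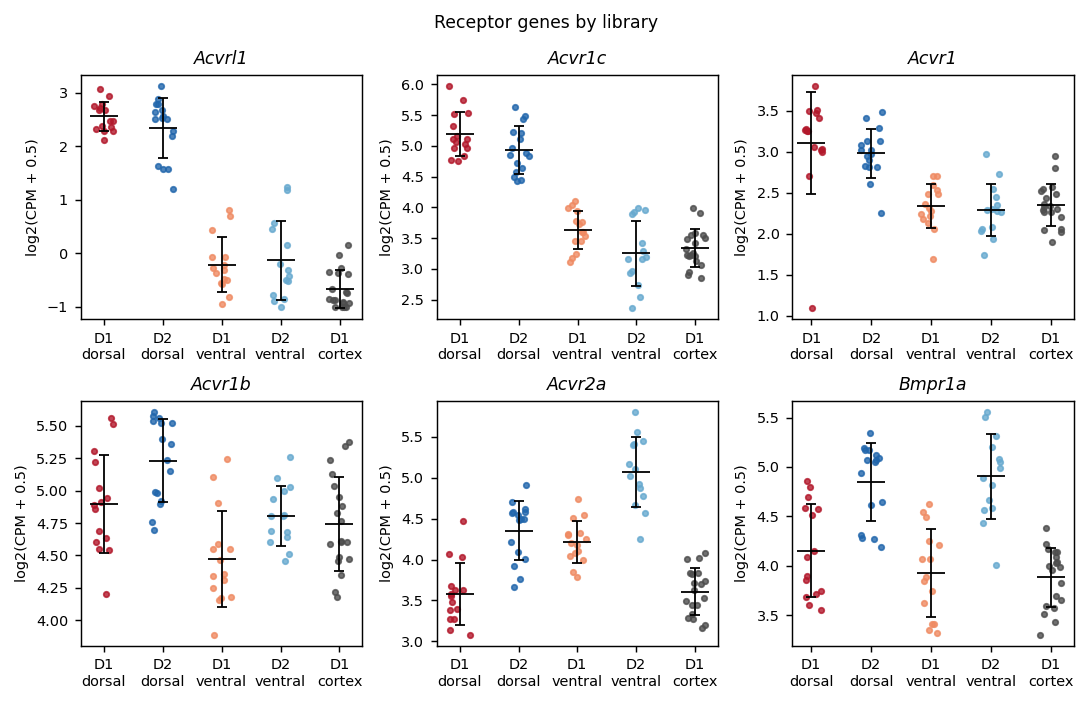
Levels of 6 receptor genes by group; each point is a library, on a log2(CPM + 0.5) axis, and the bar marks the mean ± SD of the log2 values. Acvrl1 and Acvr1c stand apart in both dorsal groups, while Acvr2a and Bmpr1a are higher in D2 than in D1 libraries of the same region.

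Acvr1c, which encodes ALK7, a type I receptor for activins, nodal and some GDFs, showed the same division. It ran from 26.4 to 62.5 CPM in D1 dorsal striatum (median 34.0) and from 21.0 to 49.1 CPM in D2 dorsal striatum (median 28.6). The D1 ventral libraries held 8.12 to 16.7 CPM (median 11.6), the D2 ventral 4.63 to 15.3 CPM (median 8.58) and the cortical 6.73 to 15.4 CPM (median 9.09). No dorsal library overlapped with the ventral libraries of the same receptor, nor the D1 dorsal libraries with the cortical ones. The dorsal excess was 1.55 (SE 0.12, adjusted p = 1.09e-12) for D1 and 1.68 (SE 0.16, adjusted p = 1.92e-10) for D2, and 1.497 and 1.62 in EM libraries alone. Cortex lay below D1 dorsal striatum by a log2 difference of -1.86 (SE 0.11, adjusted p = 9.37e-18). In ventral striatum Acvr1c was somewhat higher in D1 than in D2 libraries (0.38, SE 0.15, adjusted p = 0.0381), a call lost under edgeR.

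Acvr1 and Acvr1b, the genes next to these, were smaller in their differences and alike in direction. Acvr1, the type I BMP receptor ALK2, was singled out after its values were seen because it adjoins Acvr1c on chromosome 2. Its median was 9.07 CPM in D1 dorsal (range 1.63 to 13.5), 7.49 in D2 dorsal (4.26 to 10.7), 4.48 in D1 ventral (2.72 to 6.04), 4.38 in D2 ventral (2.83 to 7.34) and 4.50 in cortex (3.22 to 7.20). One D1 dorsal library, at 1.63 CPM, fell below all ventral ones, and 13 of 15 lay above all of them. The dorsal excess was 0.78 (SE 0.17, adjusted p = 0.000348) for D1 and 0.69 (SE 0.12, adjusted p = 4.41e-05) for D2, with 0.74 and 0.58 in EM libraries.

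Acvr1b, the main activin type I receptor ALK4, was the most abundant type I mRNA per length in each group. Its median was 29.1 CPM in D1 dorsal (17.96 to 46.6), 38.9 in D2 dorsal (25.4 to 48.2), 20.0 in D1 ventral (14.3 to 37.5), 27.5 in D2 ventral (21.4 to 37.7) and 23.9 in cortex (17.7 to 41.0). The groups overlapped widely. It was higher in dorsal striatum by 0.43 (SE 0.13, adjusted p = 0.0107) for D1 and 0.42 (SE 0.11, adjusted p = 0.00253) for D2, the latter not called in EM libraries alone (0.33, adjusted p = 0.062). It was lower in D1 than in D2 libraries by a log2 difference of -0.34 in both dorsal (SE 0.12, adjusted p = 0.0408) and ventral striatum (SE 0.11, adjusted p = 0.0162), and the dorsal call was lost in EM libraries (-0.26, adjusted p = 0.22). Scaling to reads in genes lost both calls (adjusted p = 0.0728 in dorsal and 0.0764 in ventral striatum). With the fraction of each library in genes as a covariate, the differences were -0.24 (adjusted p = 0.154) in dorsal and -0.033 (adjusted p = 0.914) in ventral striatum.

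These 4 receptor genes form 2 pairs of neighbours in GENCODE vM21 on GRCm38. Acvrl1 (chr15:101128522-101145336) and Acvr1b (chr15:101174067-101213684) lie 28.73 kb apart on the plus strand, and Acvr1c (chr2:58267453-58357895) and Acvr1 (chr2:58388644-58567157) lie 30.748 kb apart on the minus strand, with 0 annotated genes in either gap. An antisense gene overlaps exons of Acvrl1 and of Acvr1c, and use of strand in the authors' counting is not given in the sources used here. The promoter windows below, from RefSeq on GRCm38.p6, run from 250 bases before to 50 after the start of 3 of the 4, which were higher in dorsal striatum, and of Acvr2a, which was higher in ventral striatum; Acvr1, Acvr1b and Acvr2a were added after their values were seen. Capitals mark CG dinucleotides.
Acvr1c, chr2:58357709-58358008, minus strand: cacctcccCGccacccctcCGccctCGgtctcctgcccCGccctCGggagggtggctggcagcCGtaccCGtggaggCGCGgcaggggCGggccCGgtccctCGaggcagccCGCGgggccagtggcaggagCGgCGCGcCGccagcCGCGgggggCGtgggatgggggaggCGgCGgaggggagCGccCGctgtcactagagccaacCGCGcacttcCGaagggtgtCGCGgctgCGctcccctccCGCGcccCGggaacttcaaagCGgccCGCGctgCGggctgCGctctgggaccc
Acvr1, chr2:58566779-58567078, minus strand: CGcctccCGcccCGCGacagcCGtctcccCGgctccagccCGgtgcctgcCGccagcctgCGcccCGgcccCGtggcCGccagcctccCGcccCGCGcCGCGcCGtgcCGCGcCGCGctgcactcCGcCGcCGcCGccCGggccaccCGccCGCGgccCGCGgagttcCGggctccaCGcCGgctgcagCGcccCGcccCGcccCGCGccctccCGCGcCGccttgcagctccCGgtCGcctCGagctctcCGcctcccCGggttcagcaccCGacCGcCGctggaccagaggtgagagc
Acvr1b, chr15:101173822-101174121, plus strand: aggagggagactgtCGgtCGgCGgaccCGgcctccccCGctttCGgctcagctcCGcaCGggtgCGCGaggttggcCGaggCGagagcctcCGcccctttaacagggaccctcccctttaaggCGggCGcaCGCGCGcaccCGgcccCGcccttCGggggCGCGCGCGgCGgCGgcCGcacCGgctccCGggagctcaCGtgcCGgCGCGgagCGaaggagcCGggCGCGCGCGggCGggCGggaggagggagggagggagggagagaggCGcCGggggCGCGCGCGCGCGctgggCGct
Acvr2a, chr2:48813859-48814158, plus strand: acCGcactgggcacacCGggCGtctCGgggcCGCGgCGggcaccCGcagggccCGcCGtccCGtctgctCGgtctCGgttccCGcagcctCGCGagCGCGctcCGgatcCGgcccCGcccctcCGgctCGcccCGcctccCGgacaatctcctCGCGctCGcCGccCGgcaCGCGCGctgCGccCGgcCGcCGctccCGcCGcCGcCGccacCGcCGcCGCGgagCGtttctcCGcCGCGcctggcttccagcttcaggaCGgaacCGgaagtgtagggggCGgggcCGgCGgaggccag
All 4 are dense in G and C: 79% for Acvr1c, 83.7% for Acvr1, 79.7% for Acvr1b and 80.3% for Acvr2a, against a median of 52.7% over 32851 RefSeq promoter windows of the same length. They hold 39, 51, 51 and 54 CG dinucleotides, where the median window holds 7. RefSeq gives Acvr1c another start, whose window (chr2:58324758-58325057, minus strand) has 50.3% G and C and 2 CG dinucleotides. Of 3 short motifs searched on both strands, CAGAC, a core of the SMAD-binding element, was found in the Acvr2a window alone, starting 188 bases before the start, and it is found in 49.6% of all windows. GGCGCC, the core of a BMP response element, was found in the Acvr1b window at base 18 after the start and is found in 11.9% of windows. TGACG, a core of the cAMP response element, was in none of the 4 windows and is in 20.8% of all.

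The remaining type I receptors were Bmpr1a, Bmpr1b and Tgfbr1. Bmpr1a, the BMP receptor ALK3, was higher in D2 libraries in both striatal regions. Its median was 32.9 CPM in D2 dorsal (17.7 to 40.2) against 16.6 in D1 dorsal (11.2 to 28.4), and 30.2 in D2 ventral (15.5 to 46.6) against 14.3 in D1 ventral (9.52 to 24.2). The ranges overlapped in part, with 10 of 16 and 10 of 14 D2 libraries above every D1 library of their region. D1 minus D2 was -0.69 (SE 0.15, adjusted p = 0.000619) in dorsal and -0.98 (SE 0.15, adjusted p = 5.09e-06) in ventral striatum, and -0.70 and -1.05 in EM libraries. With the fraction of each library in genes as a covariate, the ventral difference was -0.35 and no longer called. Cortex had 9.38 to 20.4 CPM (median 15.4), and neither cortical comparison was called. Neither comparison of dorsal with ventral striatum was called for Bmpr1a.

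Bmpr1b, the BMP receptor ALK6, was higher in cortex than in either D1 striatal group. All 19 cortical libraries, at 1.40 to 5.27 CPM (median 2.83), lay above all D1 striatal libraries, which stayed at or under 0.98 CPM. The cortical excess was 2.11 (SE 0.14, adjusted p = 7.9e-17) over D1 dorsal and 1.82 (SE 0.14, adjusted p = 9.64e-15) over D1 ventral striatum. No D1 striatal library reached 1 CPM, so the gene entered both tests through the cortical libraries. Tgfbr1, the TGF-beta receptor ALK5, was low, with medians of 1.16 CPM in D1 dorsal, 2.15 in D2 dorsal, 0.418 in D1 ventral, 1.04 in D2 ventral and 1.23 in cortex. It lies outside the naming rule and was added after its values were seen. It was lower in D1 than in D2 dorsal striatum (-0.76, SE 0.18, adjusted p = 0.00199), not called in EM libraries (-0.59, adjusted p = 0.097), and higher in dorsal than ventral D2 libraries (0.73, SE 0.20, adjusted p = 0.00442). All 16 D2 dorsal libraries reached 1 CPM, but 10 of 15 D1 dorsal and 8 of 14 D2 ventral ones did, so the D2 dorsal libraries alone sufficed for both tests.

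Set on a common scale, CPM per kilobase of exon, the 7 type I receptors summed to 17.05 ± 4.15 (SD, n = 15) in D1 dorsal, 19.7 ± 3.24 (SD, n = 16) in D2 dorsal, 10.0 ± 2.43 (SD, n = 15) in D1 ventral, 13.5 ± 2.22 (SD, n = 14) in D2 ventral and 11.2 ± 2.18 (SD, n = 19) in cortical libraries. Acvr1b took the largest mean share in each group, from 40.1% ± 3.19 (D1 dorsal) to 54.3% ± 4.58 (cortex). Acvr1c took 23.5% ± 2.98 in D1 dorsal and 16.96% ± 3.48 in D2 dorsal libraries, but 13.2% ± 1.88, 7.66% ± 2.57 and 9.49% ± 1.51 in D1 ventral, D2 ventral and cortical ones. Bmpr1a took 35.2% ± 6.50 in D2 ventral and 16.6% ± 2.73 in D1 dorsal libraries, the highest and lowest of its 5 group means. The share of Acvrl1 was 7.88% ± 2.17 and 6.17% ± 2.99 in the D1 and D2 dorsal groups and at most 1.04% elsewhere. These errors are SDs over libraries. The shares were computed after the values were seen and are given as a description without a test.

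**Figure D2:**
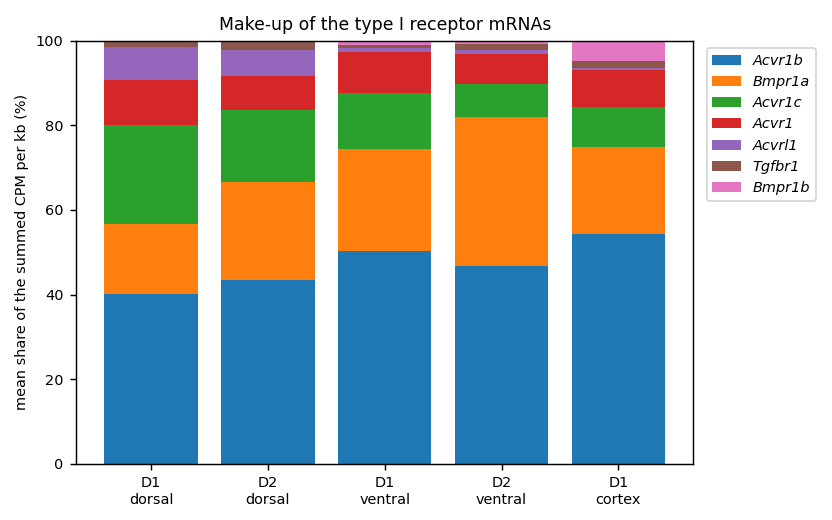
Mean share of each of 7 type I receptors in their summed CPM per kilobase of exon, stacked by group. Acvr1b is the largest part in all 5 groups, and Acvr1c and Acvrl1 are larger parts in the 2 dorsal groups.

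Among type II receptors, Acvr2a, which binds activins and several BMPs, differed between striatal regions. Its direction was opposite to that of the type I receptors called there. It ran from 7.97 to 21.6 CPM in D1 dorsal (median 11.3), 12.2 to 29.7 in D2 dorsal (median 22.0), 13.2 to 26.2 in D1 ventral (median 17.9), 18.5 to 55.4 in D2 ventral (median 33.0) and 8.47 to 16.4 in cortex (median 11.8). It was thus highest in D2 ventral and lowest in D1 dorsal striatum and cortex. The dorsal minus ventral difference was -0.63 (SE 0.12, adjusted p = 4.38e-05) for D1 and -0.72 (SE 0.14, adjusted p = 0.00014) for D2. Between receptors, D1 minus D2 was -0.78 (SE 0.13, adjusted p = 2.02e-05) in dorsal and -0.86 (SE 0.13, adjusted p = 1.96e-06) in ventral striatum, and EM libraries gave -0.71 and -0.73. Cortex was below D1 ventral striatum (-0.61, SE 0.09, adjusted p = 4.81e-07), and its difference from D1 dorsal striatum was not called (0.03, SE 0.11, adjusted p = 0.849). The gene Orc4 overlaps its exons on the opposite strand.

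Bmpr2, the BMP type II receptor, overlapped in range between all groups. Its medians were 54.9 CPM in D1 dorsal, 65.1 in D2 dorsal, 46.3 in D1 ventral, 59.6 in D2 ventral and 64.2 in cortex, within a full range of 24.1 to 88.0 CPM. It was lower in D1 than D2 ventral striatum (-0.36, SE 0.12, adjusted p = 0.0138), but with the fraction of each library in genes as a covariate it was 0.063 (adjusted p = 0.805), and EM libraries gave -0.21 (adjusted p = 0.18). It was higher in cortex than in D1 ventral striatum by 0.33 (SE 0.09, adjusted p = 0.0012).

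Tgfbr2, the TGF-beta type II receptor, was highest in D2 dorsal striatum. It ran from 0.941 to 3.24 CPM in D2 dorsal libraries (median 2.01), 15 of 16 above every D1 dorsal library (0 to 1.23 CPM, median 0.252). D2 ventral libraries had 0.412 to 3.37 CPM (median 0.725), D1 ventral 0 to 0.702 CPM (median 0.260) and cortex 0.131 to 1.07 CPM (median 0.520). In dorsal striatum D1 minus D2 was -1.55 (SE 0.15, adjusted p = 3.65e-10), and the dorsal minus ventral difference for D2 was 0.86 (SE 0.18, adjusted p = 0.000251; 0.71 with adjusted p = 0.073 in EM libraries). With 1 of 15 D1 dorsal and 5 of 14 D2 ventral libraries at 1 CPM, it entered both tests through the D2 dorsal libraries, and it did not enter the dorsal receptor comparison in EM libraries. Tgfbr3 (betaglycan), a co-receptor for TGF-beta2 and inhibin, was low in cortex. Its medians were 5.83 CPM in D1 dorsal (3.51 to 8.34), 7.32 in D2 dorsal (2.36 to 11.5), 4.22 in D1 ventral (3.35 to 6.21), 5.08 in D2 ventral (2.72 to 7.26) and 1.38 in cortex (0.239 to 3.46). All 15 D1 dorsal libraries lay above all cortical ones. Cortex was lower by a log2 difference of -1.81 against D1 dorsal (SE 0.17, adjusted p = 3.42e-12) and -1.42 against D1 ventral striatum (SE 0.17, adjusted p = 7.85e-10), and -1.85 and -1.32 in EM libraries.

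On the ligand side, activin and its binding protein went in opposite directions between D1 and D2 libraries. Fst, follistatin, which binds activin with high affinity and blocks it, ran from 8.72 to 26.0 CPM in D2 dorsal striatum (median 15.1) and from 4.60 to 8.21 CPM in D2 ventral striatum (median 6.35). D1 dorsal libraries held 0.366 to 3.14 CPM (median 1.06), D1 ventral 0.122 to 0.799 CPM (median 0.427) and cortical 0 to 0.947 CPM (median 0.195). Every D2 library lay above every D1 library of its region, and every D2 dorsal library above every D2 ventral one. The ratio of group means was 13.3 in dorsal and 14.3 in ventral striatum. The D1 minus D2 difference was -3.29 (SE 0.16, adjusted p = 1.66e-18) in dorsal and -2.86 (SE 0.11, adjusted p = 7.94e-21) in ventral striatum, and -3.17 and -2.89 in EM libraries. Since 9 of 15 D1 dorsal and 0 of 15 D1 ventral libraries reached 1 CPM, the gene entered these tests through the D2 libraries. Within D2, dorsal exceeded ventral by 1.21 (SE 0.13, adjusted p = 3.76e-09; 1.17 in EM libraries).

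Cholinergic interneurons are known to carry the D2 receptor, and their 3 markers in the table summed to 2.89 to 14.2 CPM in D2 dorsal and 6.63 to 15.1 CPM in D2 ventral libraries. In D1 libraries the sum was 0.365 to 1.59 CPM in dorsal, 0.559 to 2.69 CPM in ventral striatum and 0 to 0.785 CPM in cortex, with each of the 3 markers averaging under 1 CPM. Their sum was thus higher in ventral than dorsal D2 libraries at the median (12.2 against 6.32 CPM), the reverse of Fst. Their part in the level of Fst or of other D2-high members was not tested.

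Inhba, the activin A subunit, ran from 5.33 to 26.9 CPM in D1 dorsal (median 13.04), 4.37 to 10.6 in D2 dorsal (median 7.17), 4.62 to 16.9 in D1 ventral (median 7.41), 1.29 to 6.74 in D2 ventral (median 4.81) and 3.59 to 14.98 in cortex (median 8.46). The ranges overlapped, with 10 of 15 D1 dorsal libraries above all D2 dorsal ones and 9 of 15 D1 ventral libraries above all D2 ventral ones. D1 exceeded D2 by 0.76 in dorsal (SE 0.18, adjusted p = 0.00195) and 0.82 in ventral striatum (SE 0.19, adjusted p = 0.000881). EM libraries gave 0.54 with adjusted p = 0.11 in dorsal and 0.80 with adjusted p = 0.0042 in ventral striatum. Dorsal exceeded ventral striatum by 0.69 for D1 (SE 0.20, adjusted p = 0.00771) and 0.76 for D2 (SE 0.17, adjusted p = 0.000901), and cortex lay below D1 dorsal striatum (-0.62, SE 0.20, adjusted p = 0.00741).

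A comparison of these 2 genes per kilobase of exon was made after their values were seen and was not tested. It restates in part the Fst difference given above. On that scale Fst was above Inhba in 16 of 16 D2 dorsal and 14 of 14 D2 ventral libraries. Fst was below Inhba in all 15 D1 dorsal, all 15 D1 ventral and all 19 cortical libraries. The log2 ratio of Fst to Inhba per kilobase averaged 1.48 ± 0.40 (SD, n = 16) in D2 dorsal and 1.03 ± 0.58 (SD, n = 14) in D2 ventral striatum, against -2.57 ± 0.80 (SD, n = 15), -2.66 ± 0.42 (SD, n = 15) and -3.04 ± 0.71 (SD, n = 19) in D1 dorsal, D1 ventral and cortex. Fst lies at chr13:114452290-114458951 on the minus strand with an antisense gene over part of its exons, and Inhba at chr13:16011851-16031621 on the plus strand. Inha, the inhibin alpha subunit, which paired with an Inhb subunit forms an activin antagonist, had medians of 1.59 to 2.57 CPM in the 5 groups and was called in none of the 6 comparisons, its smallest adjusted p being 0.0627 in the cortex against ventral striatum comparison (-0.31, SE 0.15).

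**Figure D3:**
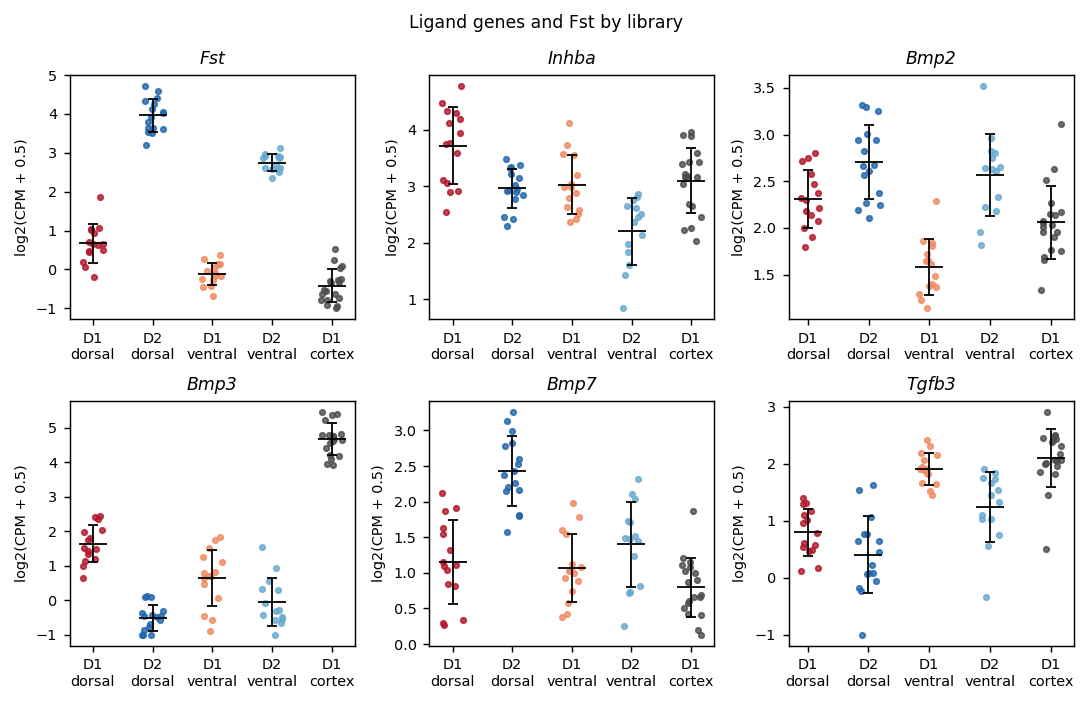
Levels of 5 ligand genes and the antagonist Fst by group; points are libraries on a log2(CPM + 0.5) axis, bars are the mean ± SD of the log2 values. Fst separates D2 from D1 libraries in both striatal regions, Inhba goes the other way with overlap, and Bmp3 is highest in cortex.

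The BMP ligands each had their own pattern. Bmp3, an atypical BMP that opposes other BMPs, ran from 14.7 to 43.3 CPM in cortex (median 24.7), 1.06 to 4.91 in D1 dorsal (median 2.37), 0.0400 to 3.06 in D1 ventral (median 1.13), 0 to 0.579 in D2 dorsal (median 0.221) and 0 to 2.41 in D2 ventral libraries (median 0.315). All cortical libraries lay above all striatal ones, and all D1 dorsal above all D2 dorsal ones. Cortex exceeded D1 dorsal striatum by 3.02 (SE 0.16, adjusted p = 1.85e-19) and D1 ventral striatum by 4.02 (SE 0.20, adjusted p = 1.33e-20). D1 exceeded D2 in dorsal striatum by 2.15 (SE 0.17, adjusted p = 1.48e-12; 2.02 in EM libraries), and dorsal exceeded ventral D1 libraries by 0.99 (SE 0.24, adjusted p = 0.00121). No D2 dorsal library reached 1 CPM, so the D1 libraries alone brought Bmp3 into the dorsal receptor comparison. In D1 ventral striatum 10 of 15 libraries reached it, so Bmp3 passed the filter through the dorsal libraries in the D1 regional test and through the cortical ones in the test of cortex against ventral striatum.

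Markers of cortical excitatory neurons moved in the same order as Bmp3. The summed level of 6 such markers had medians of 639.9 CPM in cortex (566.9 to 922.9), 101 in D1 dorsal (33.2 to 141), 66.2 in D1 ventral (18.2 to 115), 8.31 in D2 dorsal (1.56 to 37.2) and 11.35 in D2 ventral libraries (3.92 to 84.7). In the striatal groups 1 of the 6, Emx1, averaged under 1 CPM. The part of these markers in the striatal Bmp3 levels was not tested.

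Bmp7, a BMP expressed in many developing organs, was highest in D2 dorsal striatum at 2.47 to 9.08 CPM (median 4.76). The medians elsewhere were 1.67 CPM in D1 dorsal (0.703 to 3.84), 1.54 in D1 ventral (0.797 to 3.46), 2.29 in D2 ventral (0.696 to 4.48) and 1.11 in cortex (0.596 to 3.14). In dorsal striatum 13 of 16 D2 libraries lay above all D1 libraries, for a D1 minus D2 difference of -1.27 (SE 0.19, adjusted p = 1.88e-06; -1.10 in EM libraries). Within D2, dorsal exceeded ventral by 1.03 (SE 0.19, adjusted p = 7.34e-05; 1.15 in EM libraries). The ventral D1 minus D2 difference was not called (-0.33, SE 0.19, adjusted p = 0.159).

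Bmp2, a ligand of Bmpr1a and Bmpr2, ran from 2.96 to 6.48 CPM in D1 dorsal (median 4.43), 3.80 to 9.47 in D2 dorsal (median 5.85), 1.70 to 4.40 in D1 ventral (median 2.56), 3.02 to 11 in D2 ventral (median 5.71) and 2.02 to 8.12 in cortex (median 3.58). D1 ventral striatum was the low group. The D1 minus D2 difference was -0.98 in ventral (SE 0.14, adjusted p = 1.38e-06; -0.99 in EM libraries) and -0.40 in dorsal striatum (SE 0.13, adjusted p = 0.0239), the latter lost in EM libraries (-0.30, adjusted p = 0.23) and with the fraction of each library in genes as a covariate (-0.31, adjusted p = 0.0908). For D1, dorsal exceeded ventral by 0.73 (SE 0.12, adjusted p = 5.66e-06), while the D2 regional difference was not called (0.14, SE 0.15, adjusted p = 0.532). The difference between these 2 was not past the threshold as an interaction (0.58, SE 0.19, adjusted p = 0.087).

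Of the TGF-betas, Tgfb3 was lowest in dorsal striatum. It ran from 0.589 to 2.15 CPM in D1 dorsal (median 1.23), 0 to 2.58 in D2 dorsal (median 0.767), 2.22 to 4.81 in D1 ventral (median 3.23), 0.294 to 3.27 in D2 ventral (median 2.12) and 0.912 to 7.01 in cortex (median 3.69). All 15 D1 ventral libraries lay above all D1 dorsal ones, and 18 of 19 cortical libraries did so too. The dorsal minus ventral difference was -1.11 for D1 (SE 0.13, adjusted p = 2.01e-08; -1.01 in EM libraries) and -0.83 for D2 (SE 0.23, adjusted p = 0.00526), the latter not called in EM libraries (-0.82, adjusted p = 0.076). Cortex exceeded D1 dorsal striatum by 1.30 (SE 0.16, adjusted p = 2.63e-09), and D1 exceeded D2 in ventral striatum by 0.67 (SE 0.17, adjusted p = 0.00175). The D2 regional call was also lost with edgeR (-0.92, adjusted p = 0.0533). At 1 CPM were 9 of 15 D1 dorsal against 15 of 15 D1 ventral and 18 of 19 cortical libraries, so Tgfb3 passed the filter of those tests through the groups where it was high. Tgfb2 was flatter, with medians from 1.52 CPM in D2 dorsal to 2.21 CPM in D2 ventral libraries. It was lower in dorsal than ventral D1 libraries (-0.43, SE 0.15, adjusted p = 0.0269), a call lost in EM libraries (-0.45, adjusted p = 0.0504), with median-ratio scaling (-0.34, adjusted p = 0.0917) and with edgeR (-0.39, adjusted p = 0.149). It was higher in cortex than D1 dorsal striatum (0.57, SE 0.16, adjusted p = 0.00343). Both genes have annotated transcripts on the opposite strand over their exons.

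Gdf11, a ligand close to myostatin that signals through Smad2 and Smad3, was lowest in dorsal striatum, with medians of 0.533 CPM in D1 and 0.620 CPM in D2 dorsal libraries. Medians were 1.15 CPM in D1 ventral, 1.36 CPM in D2 ventral and 1.67 CPM in cortical libraries. Cortex exceeded D1 dorsal striatum by 1.11 (SE 0.17, adjusted p = 3.59e-07) and D1 ventral striatum by 0.64 (SE 0.15, adjusted p = 0.00026), and D2 dorsal lay below D2 ventral striatum (-0.74, SE 0.21, adjusted p = 0.00741). With 18 of 19 cortical libraries at 1 CPM against 4 of 15 D1 dorsal and 9 of 15 D1 ventral ones, Gdf11 entered both cortical tests through the cortical libraries. Gdf1 had medians of 9.56 to 16.02 CPM, but its exons overlap those of Cers1 on the same strand, so its reads cannot be assigned with certainty. Its calls were lower in cortex than D1 dorsal striatum (-0.38, adjusted p = 0.0317), higher in D1 than D2 ventral striatum (0.40, adjusted p = 0.0377) and higher in dorsal than ventral D2 libraries (0.54, adjusted p = 0.0497). None of the 3 was called in EM libraries alone.

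Inside the cell, the common mediator Smad4 and the BMP-regulated Smad5 and Smad1 moved in different ways. Smad4 ran from 14.6 to 33.4 CPM in D1 dorsal (median 24.0), 18.03 to 38 in D2 dorsal (median 32.9), 15.3 to 22.6 in D1 ventral (median 17.8), 16.7 to 27.9 in D2 ventral (median 23.3) and 7.72 to 15.5 in cortex (median 10.5). Cortex was lowest: 14 of 15 D1 dorsal and 14 of 15 D1 ventral libraries lay above every cortical one. The cortical difference was -1.04 against D1 dorsal (SE 0.09, adjusted p = 2.18e-13) and -0.74 against D1 ventral striatum (SE 0.07, adjusted p = 6.59e-12). Dorsal exceeded ventral by 0.30 for D1 (SE 0.08, adjusted p = 0.0042) and 0.40 for D2 (SE 0.10, adjusted p = 0.00253; 0.34 with adjusted p = 0.098 in EM libraries). D1 lay below D2 by -0.43 in dorsal (SE 0.10, adjusted p = 0.00199; -0.32 with adjusted p = 0.12 in EM libraries) and by -0.33 in ventral striatum (SE 0.08, adjusted p = 0.001).

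Smad5 was low in cortex too, but higher in ventral than dorsal striatum. It ran from 5.89 to 11.03 CPM in cortex (median 7.97), 6.37 to 15.2 in D1 dorsal (median 11.3), 14.1 to 19.8 in D2 dorsal (median 15.5), 14.1 to 18.5 in D1 ventral (median 16.02) and 13.6 to 37.6 in D2 ventral libraries (median 20.4). Every D1 ventral library lay above every cortical one, for a log2 difference of -1.0 (SE 0.07, adjusted p = 3.77e-16). The dorsal minus ventral difference was -0.53 for D1 (SE 0.09, adjusted p = 1.06e-05) and -0.35 for D2 (SE 0.10, adjusted p = 0.00853; -0.24 with adjusted p = 0.17 in EM libraries). The D2 call was also lost with median-ratio scaling (-0.22, adjusted p = 0.176) and with edgeR (-0.25, adjusted p = 0.104). D1 was below D2 by -0.52 in dorsal (SE 0.09, adjusted p = 6.24e-05) and by -0.33 in ventral striatum (SE 0.10, adjusted p = 0.00505; -0.16 with adjusted p = 0.16 in EM libraries). That ventral call was lost as well when scaled to reads in genes (-0.22, adjusted p = 0.0578) and with the fraction of each library in genes as a covariate (-0.35, adjusted p = 0.0769).

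Smad1 and Smad9, which share the role of Smad5 and were added after their values were seen, were instead higher in cortex. The Smad1 medians were 11.6 CPM in D1 dorsal (8.03 to 14.9), 14.2 in D1 ventral (11.4 to 16.6) and 19.6 in cortex (16.6 to 22.8), with all 19 cortical libraries above all D1 dorsal ones. The cortical excess of Smad1 was 0.71 over dorsal (SE 0.07, adjusted p = 6.81e-11) and 0.47 over ventral striatum (SE 0.06, adjusted p = 1.9e-08). Smad9 had medians of 4.74, 4.68 and 8.43 CPM in the same groups, and cortex exceeded D1 dorsal by 0.75 (SE 0.11, adjusted p = 1.92e-07) and D1 ventral striatum by 0.81 (SE 0.09, adjusted p = 3.72e-10). The BMP-regulated SMADs thus differed in direction among themselves between cortex and striatum. Both Smad1 comparisons of dorsal with ventral striatum were called as lower (-0.24, adjusted p = 0.0213, for D1 and -0.33, adjusted p = 0.0318, for D2), and both calls were lost with median-ratio scaling (adjusted p = 0.234 and 0.236). The D1 call was lost in EM libraries too (-0.19, adjusted p = 0.0858).

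Smad2 and Smad3 carry the activin and TGF-beta signal. Smad2 medians were 14.5 CPM in D1 dorsal, 14.1 in D2 dorsal, 16.98 in D1 ventral, 19.3 in D2 ventral and 19.3 in cortex. It was lower in dorsal than ventral striatum for D1 (-0.28, SE 0.08, adjusted p = 0.00839) and D2 (-0.43, SE 0.12, adjusted p = 0.00506), and neither call held with median-ratio scaling (adjusted p = 0.127 and 0.0527), nor the D2 call in EM libraries (-0.37, adjusted p = 0.106). It was higher in cortex than D1 dorsal striatum by 0.42 (SE 0.09, adjusted p = 0.000101). Smad3 medians were 29.5, 26.2, 29.9 and 32.4 CPM in D1 dorsal, D2 dorsal, D1 ventral and D2 ventral striatum and 21.4 CPM in cortex. No striatal comparison of Smad3 was called, and cortex lay below D1 dorsal (-0.38, SE 0.11, adjusted p = 0.00332) and D1 ventral striatum (-0.46, SE 0.09, adjusted p = 4.32e-05). Smad7, the inhibitory SMAD above the filter, had medians of 3.70 to 4.00 CPM in all 5 groups and was called in none of the 6 comparisons, its differences lying between -0.06 and 0.02 with SEs of 0.11 to 0.21.

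**Figure D4:**
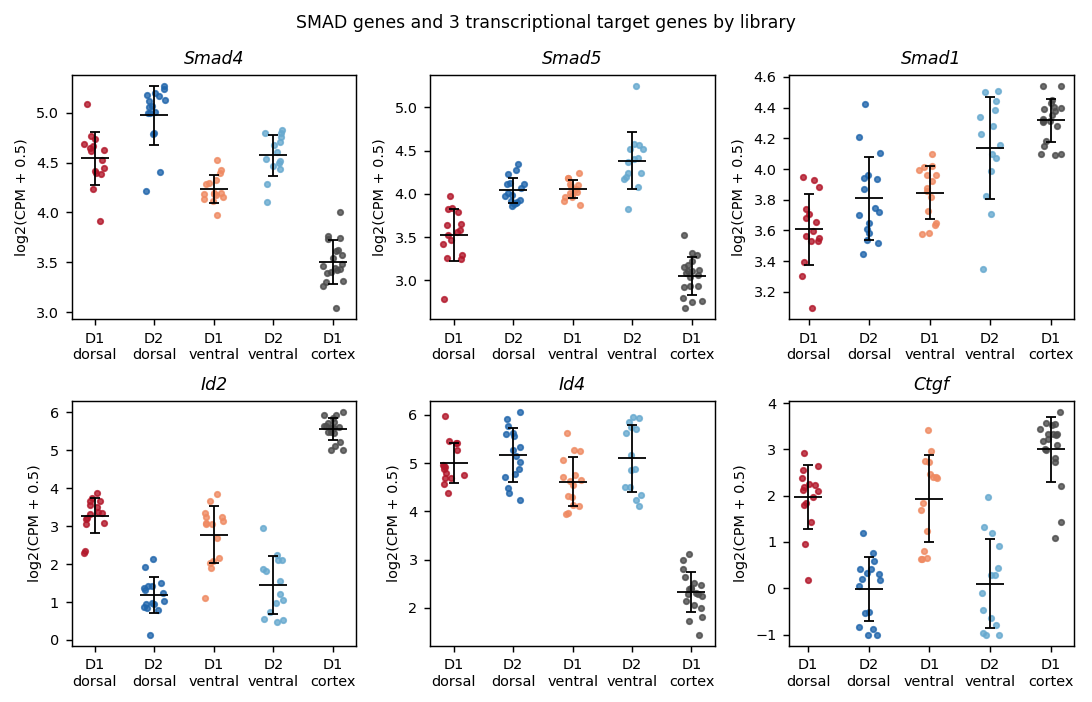
Levels of Smad4, Smad5 and Smad1 and of 3 known targets of the pathway by group; points are libraries on a log2(CPM + 0.5) axis, bars are the mean ± SD of the log2 values. Smad4 and Smad5 are lowest in cortex, where Smad1 is highest, and Id2 and Id4 differ between cortex and striatum in opposite directions.

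Counted over the family, most of the members called between D1 and D2 were lower in D1. In dorsal striatum 12 of 26 tested members were called (46.15%), against 25.9% of all 11090 genes tested; 2 were higher in D1 (background 12.8%) and 10 lower (background 13%), and 4 differed at least 2-fold (Bmp3, Bmp7, Fst and Tgfbr2; background 3.36%). By role, 5 of 10 tested receptors were lower and 0 higher, and 2 of 7 SMADs were lower and 0 higher. The median difference over the tested members was -0.20, where that over all genes was 0.02. In ventral striatum 13 of 23 were called (56.52%, background 47.7%), 4 higher (background 24.1%) and 9 lower (background 23.6%), and Fst alone reached 2-fold (background 3.62%). The median there was -0.17 over members and 0.02 over all genes. The dorsal and the ventral test both called 8 of the 22 members they share, with equal sign, against 19.1% of the 10942 genes they share: Inhba was higher in D1, and Acvr1b, Acvr2a, Bmp2, Bmpr1a, Fst, Smad4 and Smad5 were lower. Called with groups that did not overlap were 2 members in dorsal striatum (Bmp3 and Fst; background 1.18%) and 1 in ventral striatum (Fst; background 1.34%).

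EM libraries alone called 7 members in dorsal striatum, 6 of them among the 12, and 11 in ventral striatum, 10 of them among the 13. Of the 8 members called in both regions, Acvr1b, Bmp2, Inhba and Smad4 lost the dorsal call in EM libraries, and Smad5 the ventral one. Acvr2a, Bmpr1a and Fst kept both. In ventral striatum the share of the library total lying in genes was 35.1% ± 1.64 (SD, n = 15) for D1 and 38.0% ± 1.51 (SD, n = 14) for D2, and scaling each library to its reads in genes gave 6 members higher and 5 lower, while edgeR gave 2 and 9. With that share as a covariate, 7 members were called in place of 13. Markers of oligodendrocytes were also higher in D2 libraries: the 8 markers summed to 77.3 to 245 CPM in D1 and 104 to 306 CPM in D2 dorsal libraries, and to 66.8 to 125 CPM in D1 and 93.1 to 259 CPM in D2 ventral libraries. The 10 markers of pericytes and fibroblasts summed to 0.982 to 4.94 CPM against 2.11 to 10.3 CPM in dorsal, and to 1.27 to 4.23 CPM against 3.00 to 13.3 CPM in ventral striatum. Of these 10, 9 averaged under 1 CPM in each D1 striatal group and 8 in each D2 group. Cspg4 averaged 0.655 CPM in D1 against 2.19 in D2 dorsal libraries and 0.508 against 3.14 CPM in ventral ones. Col1a1 had the higher mean in D1 in dorsal striatum (0.145 against 0.0399 CPM), as did Kcnj8 and Col1a2 in ventral striatum. Markers of cortical excitatory neurons were higher in D1 libraries, with summed medians of 101.3 CPM in D1 against 8.308 in D2 dorsal libraries and 66.21 against 11.35 CPM in ventral ones. Those of GABA interneurons had medians of 29.41 against 10.14 CPM in dorsal but 17.39 against 19.99 CPM in ventral libraries. For astrocyte markers they were 28.76 against 18.68 CPM in dorsal but 24.68 against 28.89 CPM in ventral libraries. The part of any of these cell types in the counts, or in the D1 excess of Inhba, was not tested.

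Between striatal regions, the type I receptors called were all higher in dorsal striatum. The receptor-regulated SMADs called were lower, but 5 of these 6 calls were lost with median-ratio scaling. For D1, 15 of 23 tested members were called (65.22%, background 34.6%), 9 higher in dorsal striatum (background 10.1%) and 6 lower (background 24.5%), and 3 reached 2-fold (Acvr1c, Acvrl1 and Tgfb3; background 3.45%). For D2, 18 of 26 were called (69.23%, background 28.5%), 12 higher (background 7.93%) and 6 lower (background 20.6%), and 4 reached 2-fold (Acvr1c, Acvrl1, Bmp7 and Fst; background 4.15%). Of the type I receptors, 4 of 5 tested were higher for D1 and 5 of 6 for D2, and none was lower. Of the 5 receptor-regulated SMADs, 3 (Smad1, Smad2 and Smad5) were lower for each receptor and 0 higher. With median-ratio scaling and with edgeR, the Smad1 and Smad2 calls were lost for D1 and all 3 for D2, which leaves Smad5 for D1. The median difference over tested members was 0.17 for D1 and 0.09 for D2, while that over all genes was -0.12 in both. Markers of several cell types moved with the region. The 6 markers of striatal projection neurons had the higher mean in dorsal striatum for both receptors, with summed medians of 2736 CPM in D1 dorsal (1840 to 3512) against 1721 in D1 ventral (1582 to 2050) and 3489 in D2 dorsal (2269 to 4163) against 1973 CPM in D2 ventral libraries (1458 to 2418). Of the 8 oligodendrocyte markers, 8 were higher in dorsal striatum for D1 and 7 for D2, with summed medians of 112.1 against 78.51 CPM and 163.6 against 131.1 CPM. All 6 cortical excitatory markers were higher in dorsal striatum for D1 and 1 of the 6 for D2. Choroid plexus markers differed by region in both directions: for each receptor, 4 of the 6 had the higher mean in dorsal striatum and 2 in ventral striatum. Ttr averaged 8.796 CPM in D1 dorsal and 12.4 CPM in D2 dorsal libraries against 0.2477 and 0.5743 CPM in ventral ones. Clic6 went the other way, with 6.673 and 8.806 CPM in dorsal against 12.38 and 11.88 CPM in ventral libraries, and so did Kl, with 1.1 and 1.764 against 3.285 and 3.625 CPM. The sum of the 6 had medians of 11.81 CPM in D1 dorsal (4.187 to 50.02), 17.57 in D2 dorsal (7.531 to 48.21), 16.26 in D1 ventral (12.26 to 19.82) and 15.27 in D2 ventral libraries (11.16 to 23.16). The part of these cell types in the regional differences was not tested.

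Of 22 members tested in both regional comparisons, 12 were called in both, each in the same direction, where 18.1% of the 10956 genes tested in both were. Acvr1, Acvr1b, Acvr1c, Acvrl1, Inhba, Smad4 and Tgfbr3 were higher in dorsal striatum, and Acvr2a, Smad1, Smad2, Smad5 and Tgfb3 lower. Median-ratio scaling brought the median of all genes to -0.01 for D1 and 0.01 for D2; the members then split 10 higher to 3 lower and 12 to 3, and edgeR gave 11 to 3 and 12 to 2. EM libraries alone called 15 members for D1, 13 of them shared with the pooled test, and 10 for D2, all shared. Those lost were Smad1 and Tgfb2 for D1 and Acvr1b, Gdf1, Smad2, Smad4, Smad5, Tgfb3, Tgfbr2 and Tgfbr3 for D2 (Tgfbr3 went from 0.56, adjusted p = 0.00562, to 0.43, adjusted p = 0.161). Called with groups that did not overlap were 3 members for D1 (background 2.65%) and 2 for D2 (background 1.46%).

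In cortex the family differed from striatum in both directions. Against D1 dorsal striatum, 17 of 26 tested members were called (65.38%, background 54.8%), 8 higher in cortex (background 32.3%) and 9 lower (background 22.5%). At least 2-fold were 8 members (background 16%): Bmp3, Bmpr1b, Gdf11 and Tgfb3 higher, Acvr1c, Acvrl1, Smad4 and Tgfbr3 lower. Against D1 ventral striatum, 14 of 24 were called (58.33%, background 62.8%), 8 higher (background 27.7%) and 6 lower (background 35.1%), and 4 reached 2-fold (background 14.2%): Bmp3 and Bmpr1b higher, Smad5 and Tgfbr3 lower. The share called against ventral striatum was near that of all genes. Both comparisons use the same cortical libraries. EM libraries alone called 16 members in each, 16 and 14 of them shared with the pooled tests. Called with groups that did not overlap were 6 members against dorsal (background 10.5%) and 4 against ventral striatum (background 12.6%). Markers of astrocytes (8 genes) summed to 68.2 to 216 CPM in cortex, 13.8 to 38.7 in D1 dorsal and 12.8 to 32.9 in D1 ventral striatum, and those of GABA interneurons (5 genes) to 87.1 to 245 CPM, 13.6 to 57.7 and 10.5 to 36.8 CPM. The 6 markers of striatal projection neurons were lower in cortex, with summed medians of 110.8, 2736 and 1721 CPM in the same order. Those of pericytes and fibroblasts had 11.25, 2.319 and 2.408 CPM, with 8 of the 10 averaging under 1 CPM in cortex. The cortical excitatory markers, given with Bmp3, were highest in cortex. The part of these cell types in the cortical differences was not tested.

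The D1 minus D2 difference itself changed with the region for 3 of 27 tested members (11.11%, background 2.64%): Bmp3, Bmp7 and Tgfbr2. For Bmp3 it was larger in dorsal striatum (interaction 1.45, SE 0.32, adjusted p = 0.00267; 1.46 with adjusted p = 0.045 in EM libraries). For Bmp7 the interaction was -0.95 (SE 0.27, adjusted p = 0.0392) and for Tgfbr2 -0.78 (SE 0.23, adjusted p = 0.045), both D2-high mainly in dorsal striatum; EM libraries gave -0.88 with adjusted p = 0.12 and -0.74 with adjusted p = 0.19, and edgeR lost both calls (adjusted p = 0.0991 and 0.454). The libraries of 1 group where the gene was high, D1 dorsal for Bmp3 and D2 dorsal for Tgfbr2, alone sufficed for the filter of this test. For Acvrl1 it was 0.30 (SE 0.28, adjusted p = 0.653), for Acvr1c -0.13 (SE 0.20, adjusted p = 0.822) and for Fst -0.43 (SE 0.20, adjusted p = 0.286).

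**Figure D5:**
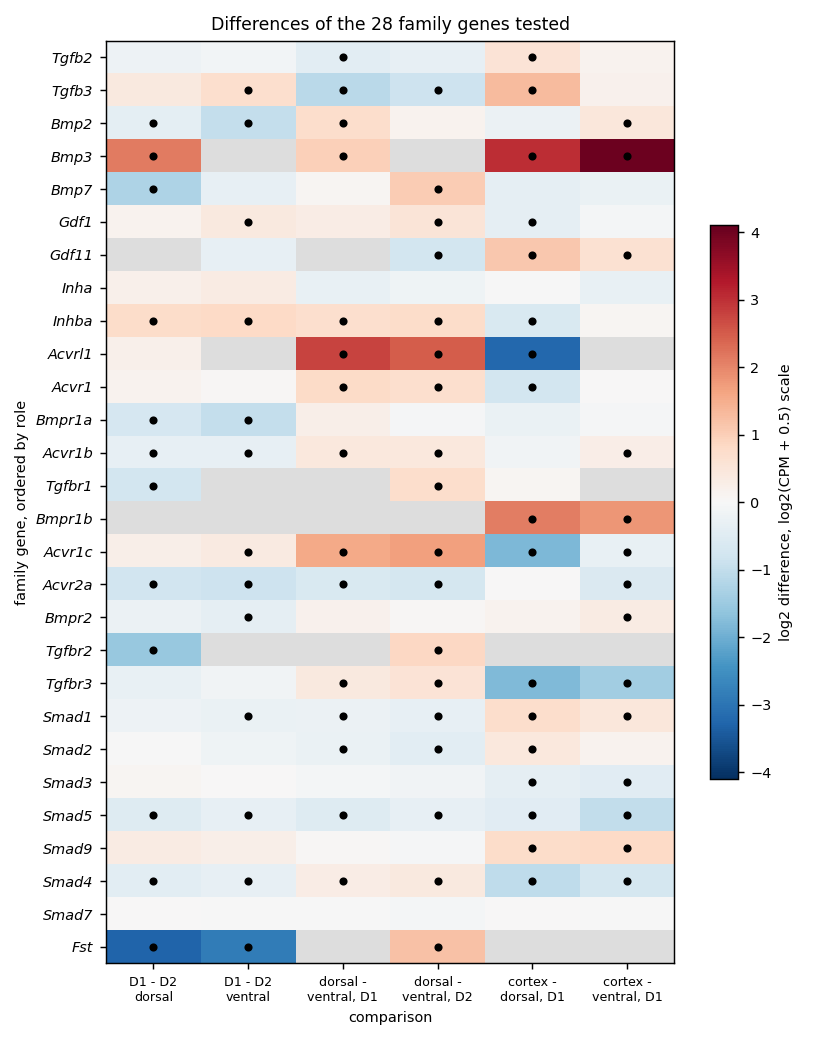
Differences of the 28 tested members in the 6 comparisons, on the log2(CPM + 0.5) scale; red or blue shades give sign and size, black dots mark adjusted p under 0.05 and grey cells were not tested. Acvrl1 and Acvr1c stand out in both regional columns, Fst in both receptor columns and Bmp3 in both cortical ones.

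Other genes of the pathway, taken from lists of extracellular modulators, TGF-beta activators, intracellular regulators and known targets, were tested alongside: 79 were listed and 77 are in the table. Called were 13 of 44 tested (29.55%, background 25.9%) between D1 and D2 in dorsal (5 higher in D1, 8 lower) and 24 of 45 (53.33%, background 47.7%) in ventral striatum (9 higher, 15 lower). The 13 dorsal calls became 6 in EM libraries and 7 with the name code as a covariate, and the 24 ventral ones became 6 with the fraction of each library in genes as a covariate. Between dorsal and ventral striatum, 16 of 45 were called for D1 (35.56%, background 34.6%; 7 higher, 9 lower) and 11 of 42 for D2 (26.19%, background 28.5%; 5 higher, 6 lower). Cortex differed in 30 of 47 from D1 dorsal (63.83%, background 54.8%; 16 higher, 14 lower) and in 28 of 47 from D1 ventral striatum (59.57%, background 62.8%; 13 higher, 15 lower). These shares lie near those of all genes. Among 22 tested intracellular regulators, 5 were lower and 0 higher in D1 dorsal, and 10 lower and 2 higher in D1 ventral striatum than in D2; of all genes, 13% were lower in dorsal and 23.6% in ventral striatum. In EM libraries 1 of those 5 dorsal calls (Pmepa1) held, and 8 of the 10 lower and 1 of the 2 higher ventral ones. Among 8 tested known targets, 4 were higher and 0 lower in D1 dorsal, and 5 higher and 2 lower in D1 ventral striatum, where 12.8% and 24.1% of all genes were higher; EM libraries kept 3 of the 4, 4 of the 5 and 1 of the 2. Many of these targets answer to other pathways as well.

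Id2, a target of BMP signalling that blocks basic helix-loop-helix factors, ran from 32.0 to 64.1 CPM in cortex (median 48.0), 4.37 to 14.2 in D1 dorsal (median 9.67), 1.65 to 13.9 in D1 ventral (median 7.90), 0.604 to 3.93 in D2 dorsal (median 1.69) and 0.896 to 7.18 in D2 ventral libraries (median 2.12). D1 exceeded D2 by 2.10 in dorsal (SE 0.16) and 1.33 in ventral striatum (SE 0.26), and cortex exceeded D1 dorsal by 2.28 (SE 0.12), all called. Markers of cortical excitatory neurons, given with Bmp3, had medians in the same order over the 5 groups as Id2, and their part in its differences was not tested. Id4, of the same family, was reversed in cortex: 2.22 to 8.11 CPM there (median 4.48) against 20.3 to 62.2 CPM in D1 dorsal striatum (median 29.9), a difference of -2.69 (SE 0.14, adjusted p = 4.06e-20). Ctgf, a target of both TGF-beta and YAP signalling, had medians of 3.88 CPM in D1 dorsal, 0.645 in D2 dorsal, 4.74 in D1 ventral, 0.574 in D2 ventral and 8.84 in cortical libraries, and its cortical excess over D1 dorsal was 1.03 (SE 0.22, adjusted p = 0.000148; 0.64 in EM libraries).

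Pmepa1, a target of TGF-beta that holds back Smad2 and Smad3, had medians of 93.0 CPM in D2 dorsal, 58.4 in D2 ventral, 47.9 in D1 dorsal, 28.9 in D1 ventral and 14.8 in cortical libraries. The D1 minus D2 difference in ventral striatum was -1.12 (SE 0.13, adjusted p = 2.12e-08), and cortex lay below D1 dorsal by -1.63 (SE 0.12, adjusted p = 1.48e-15). Fkbp1a, which binds type I receptors and keeps them silent without ligand, had a median of 527.3 CPM in cortex and 1438 CPM in D1 ventral striatum (-1.43, SE 0.08, adjusted p = 9.96e-19). The ubiquitin ligase Smurf2, which marks SMADs and receptors for degradation, was also lower in cortex than D1 ventral striatum (-1.22, SE 0.08), and Nedd4l, another such ligase, was lower than in D1 dorsal striatum (-1.01, SE 0.12). The SMAD-binding kinase Hipk2 was higher in cortex than in D1 dorsal (1.68, SE 0.13) and D1 ventral striatum (1.53, SE 0.09), as were the BMP co-receptor Rgma (1.06, SE 0.20, and 1.05, SE 0.14) and the target Tgfb1i1 (2.04, SE 0.14, and 1.99, SE 0.13). Klf10, an early target of TGF-beta, was higher in cortex than in D1 ventral striatum by 1.34 (SE 0.10). Fstl1, a follistatin-like protein, was higher in dorsal than ventral D2 libraries by 1.02 (SE 0.13, adjusted p = 1.28e-07).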

How the data were processed

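Ribosome-bound mRNA was measured in 79 libraries of 5 groups taken from the labelled receptor and region. Per the labels' protocols, purified RNA was amplified as cDNA before library preparation and read in pairs, and no molecular identifiers are described. Per the submitters' processing notes, Trim Galore 0.4.2, cutadapt 1.9.1, FastQC and HISAT2 were used with GRCm38; the counting program and annotation are not given in the sources used here. The authors deposited CPM values for 25899 genes, with 0 columns left unmatched; 100% of the values above 0 were whole multiples of 1 read within 0.01. Columns summed to 309566 to 401527 CPM, so the authors scaled to a total that is larger than the reads in genes.

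Linear models in limma 3.58.1 (R 4.3.3; lmFit, then trended eBayes) took log2(CPM + 0.5) of the 2 groups of a comparison. P-values are two-sided and were adjusted by Benjamini-Hochberg over all genes passing the filter. The interaction used the 4 striatal groups. Alternatives were pseudocounts of 0.1 and 1, no filter, at least 5 CPM, median-ratio scaling, scaling to reads in genes, edgeR 4.0.16 on the recovered reads, EM or OdP libraries alone, the name code or the fraction of each library in genes as a covariate, and array weights. The scripts were tested on simulated data.

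Members with full values were those called at least 2-fold in a comparison, the 2 with the highest mean level in each role, and those called in the interaction. Pathway genes outside the family were named when called at least 2-fold with 5 CPM or more in the higher group. The members, roles and lists were chosen with earlier results of these data known. Lengths are exon unions of GENCODE vM21, used to set genes on a common scale. Replicate numbers only name libraries. Depth bounds counting error only.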

Additional observations from a re-analysis of the deposited data

Results flagged for a closer look

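The D1 minus D2 difference changed between dorsal and ventral striatum for 3 members, by the interaction test in limma. For Bmp3 the interaction was 1.45 (SE 0.32, adjusted p = 0.00267), and it was called in all 10 alternatives that gave a value, at 1.08 to 2.53. Bmp3 averaged 2.81 CPM in D1 and 0.225 CPM in D2 dorsal striatum, and 1.29 against 0.591 CPM in ventral striatum. For Bmp7 it was -0.95 (SE 0.27, adjusted p = 0.0392), called in 5 of 10 alternatives, at -1.09 to -0.79. Bmp7 averaged 1.91 and 5.18 CPM in D1 and D2 dorsal striatum and 1.72 and 2.34 CPM in ventral striatum. For Tgfbr2 it was -0.78 (SE 0.23, adjusted p = 0.045), called in 6 of 10 alternatives, at -1.02 to -0.60. Tgfbr2 averaged 0.379 and 2.01 CPM in dorsal and 0.309 and 0.973 CPM in ventral striatum, and it passed the filter of 1 CPM through the D2 dorsal libraries, where it was high (15 of 16, against 1 of 15 D1 dorsal, 0 of 15 D1 ventral and 5 of 14 D2 ventral libraries). Bmp3 likewise reached 1 CPM in 15 of 15 D1 dorsal libraries, but in 0 of 16 D2 dorsal, 10 of 15 D1 ventral and 2 of 14 D2 ventral ones.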

How the results depend on the processing

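EM libraries alone called 7 members between D1 and D2 in dorsal striatum (12 with all libraries), 10 between D2 dorsal and ventral striatum (18) and 1 in the interaction (3); OdP libraries alone called 11 in the D2 regional comparison. With the fraction of each library in genes as a covariate, 7 of the members were called between D1 and D2 in ventral striatum (13) and 6 of the other pathway genes (24), and the Bmpr2 difference there went from -0.36 to 0.063. Of the other pathway genes, 13 were called between D1 and D2 in dorsal striatum, but 7 with at least 5 CPM, 6 in EM libraries and 7 with the name code as a covariate. In the cortical comparisons, no filter on low values called 26 members against dorsal striatum (17) and 29 against ventral striatum (14), and the 5 CPM filter called 11 against dorsal striatum; more or fewer genes are then tested. The interaction called 1 member with a pseudocount of 0.1, 1 with no filter, 1 with edgeR and 0 with at least 5 CPM (3). Apart from the filters and library subsets, the cause was not tested.

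Over 113 calls of single genes (92 of members and 21 of named pathway genes), 1143 of the alternative values kept direction and call, 81 kept direction but lost the call, 22 of them in EM libraries alone, and 1 reversed. Libraries of 4 name codes are spread unevenly over the groups, and the codes' meaning is not stated. No paired analysis was run: names carry numbers, some of them consecutive across regions, but no label ties libraries to shared mice. Depth limits the members under about 1 CPM.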
